A study of Mus musculus with 4 samples.

Results

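The genes described are 8 core genes of the Hedgehog pathway, *Ihh*, *Dhh*, *Ptch1*, *Smo*, *Gli1*, *Gli2*, *Gli3* and *Hhip*, chosen by name from the 32285 genes of the deposited tables and followed across mesenchymal cell types and Schwann cells of mouse fracture callus. The cells came from C57BL/6J wild-type mice that were 3 months old (males, by the study's methods), with callus taken at 4 or 7 days post-fracture (dpf). The 4 single-cell RNA sequencing libraries were control_4d and control_7d, from mice given vehicle, and RA_4d and RA_7d, from mice given K/BxN serum, an arthritogenic serum whose transfer brings on an acute inflammatory arthritis and models only that serum-driven phase of rheumatoid arthritis. Each library was 1 pool of 4 calluses by the series' design text (the study's methods give another number for each library), scraped along the periosteal surface and digested, so each condition was a single library, mice cannot be told apart within it, and library preparation cannot be told apart from condition. For this reason no test between conditions was possible, and the intervals given are 95% intervals of counting error only (exact Poisson for levels, exact Clopper-Pearson for shares, exact conditional for ratios), which do not cover differences between mice or between cells.

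Hedgehog ligands are secreted proteins that bind the receptor Patched 1 (*Ptch1*). Without ligand Patched 1 holds the membrane protein Smoothened (*Smo*) inactive, and with ligand Smoothened passes the signal, at the primary cilium, to the transcription factors *Gli1*, *Gli2* and *Gli3*. *Gli2* is known mainly as an activator and *Gli3* mainly as a repressor, while *Gli1*, *Ptch1* and *Hhip* are themselves common target genes, and *Hhip* encodes a membrane protein that binds and sequesters ligand. Indian hedgehog (*Ihh*) is the ligand of prehypertrophic and hypertrophic chondrocytes in growing bone and fracture callus, where it acts together with parathyroid hormone-related protein (*Pthlh*) and its receptor (*Pth1r*), and desert hedgehog (*Dhh*) is the ligand of Schwann cells, required for the nerve sheath.

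All 8 genes are protein-coding, and in GENCODE on GRCm38 (mm10) *Ihh* lies on chromosome 1 at 74945315 to 74951672 (minus strand), *Dhh* on chromosome 15 at 98891152 to 98898540 (minus), *Ptch1* on chromosome 13 at 63508328 to 63573598 (minus) and *Hhip* on chromosome 8 at 79965851 to 80058006 (minus). *Smo* lies on chromosome 6 at 29735503 to 29761365 (plus), *Gli1* on chromosome 10 at 127329882 to 127341974 (minus), *Gli2* on chromosome 1 at 118834132 to 119053619 (minus) and *Gli3* on chromosome 13 at 15463235 to 15730026 (plus). Of the 8 genes, 7 had a promoter window in the RefSeq table for GRCm38.p6. The windows of *Ptch1* and *Gli3* lie inside the GENCODE genes given above, so they precede another start and do not cover the bases before the GENCODE start. The 250 bases before the start annotated in RefSeq are shown for both ligands and for *Ptch1* and *Hhip*, the genes on which the results turn. They run 5′ to 3′ on the strand of the gene, with the GC box CCCCGCCC, searched on both strands, in capitals.
Ihh (chr1:74951673-74951922): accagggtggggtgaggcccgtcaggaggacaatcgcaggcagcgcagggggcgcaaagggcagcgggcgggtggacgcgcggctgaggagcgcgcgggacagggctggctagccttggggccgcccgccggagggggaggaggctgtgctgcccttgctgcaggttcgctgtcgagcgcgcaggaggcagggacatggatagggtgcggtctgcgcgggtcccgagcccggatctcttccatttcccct
Dhh (chr15:98898541-98898790): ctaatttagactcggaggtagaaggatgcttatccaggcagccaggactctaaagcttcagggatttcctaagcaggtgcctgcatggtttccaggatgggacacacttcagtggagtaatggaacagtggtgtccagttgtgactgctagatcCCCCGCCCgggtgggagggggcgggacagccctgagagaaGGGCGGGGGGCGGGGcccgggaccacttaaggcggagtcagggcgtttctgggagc
Ptch1 (chr13:63565736-63565985): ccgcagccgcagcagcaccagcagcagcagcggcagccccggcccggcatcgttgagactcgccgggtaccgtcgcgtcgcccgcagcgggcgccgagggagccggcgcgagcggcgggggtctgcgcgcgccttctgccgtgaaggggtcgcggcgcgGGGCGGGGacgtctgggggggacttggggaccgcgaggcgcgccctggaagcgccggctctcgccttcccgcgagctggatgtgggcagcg
Hhip (chr8:80058009-80058258): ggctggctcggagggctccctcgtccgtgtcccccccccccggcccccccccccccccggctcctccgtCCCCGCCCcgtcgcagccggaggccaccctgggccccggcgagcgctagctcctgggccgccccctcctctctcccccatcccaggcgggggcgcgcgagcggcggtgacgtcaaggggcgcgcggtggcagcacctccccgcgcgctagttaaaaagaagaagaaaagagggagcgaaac
The consensus GLI site GACCACCCA was absent from the windows of all 7 genes, and stood in 0.225% of the 32851 RefSeq windows of the same length. The GC box was found 3 times in the *Dhh* window, 2 times in that of *Gli3* and 1 time each in those of *Ptch1* and *Hhip*, against 16.1% of all windows with at least 1, and neither motif holds the other. The GC content was 72.0% for *Ihh*, 59.6% for *Dhh*, 78.4% for *Ptch1* and 76.0% for *Hhip*, with a median of 52.4% over all windows.

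Of 34038 barcodes 25479 cells passed the filter of the study's methods (5470, 7676, 4110 and 8223 in control_4d, control_7d, RA_4d and RA_7d), with median depths of 16094 to 17632 UMIs (unique molecular identifiers, each standing for 1 captured molecule). The 6 pairs of libraries shared 5 to 15 cell barcodes each. Cells were clustered with all Hedgehog list genes taken out of the variable genes, and clusters were named from markers, so a name such as fibroblast stands for fibroblast-like cells and may not hold the same cells as a cluster of that name in the study. Committed mesenchymal progenitor cells numbered 336, 1393, 349 and 1158 in control_4d, control_7d, RA_4d and RA_7d, fibroblasts 320, 869, 250 and 1506, and fibroblast precursors 211, 523, 124 and 999. Osteochondral cells, with *Col2a1* at 20874 CPM (UMIs of a gene in 1e6 UMIs of the class), *Col10a1* at 2733 CPM and *Ibsp* at 9217 CPM, numbered 1, 252, 3 and 133, so the class is described at 7 dpf. Tenocyte precursors (*Tnmd* 1507 CPM) numbered 127, 210, 90 and 322, pericytes and smooth muscle cells (*Rgs5* 3625, *Myh11* 2023 CPM) 98, 241, 74 and 416, and Schwann cells (*Sox10* 322 CPM) 29, 65, 20 and 185. Committed, osteochondral, fibroblast precursor and fibroblast cells were also summed as mesenchymal cells.

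**Figure D1:**
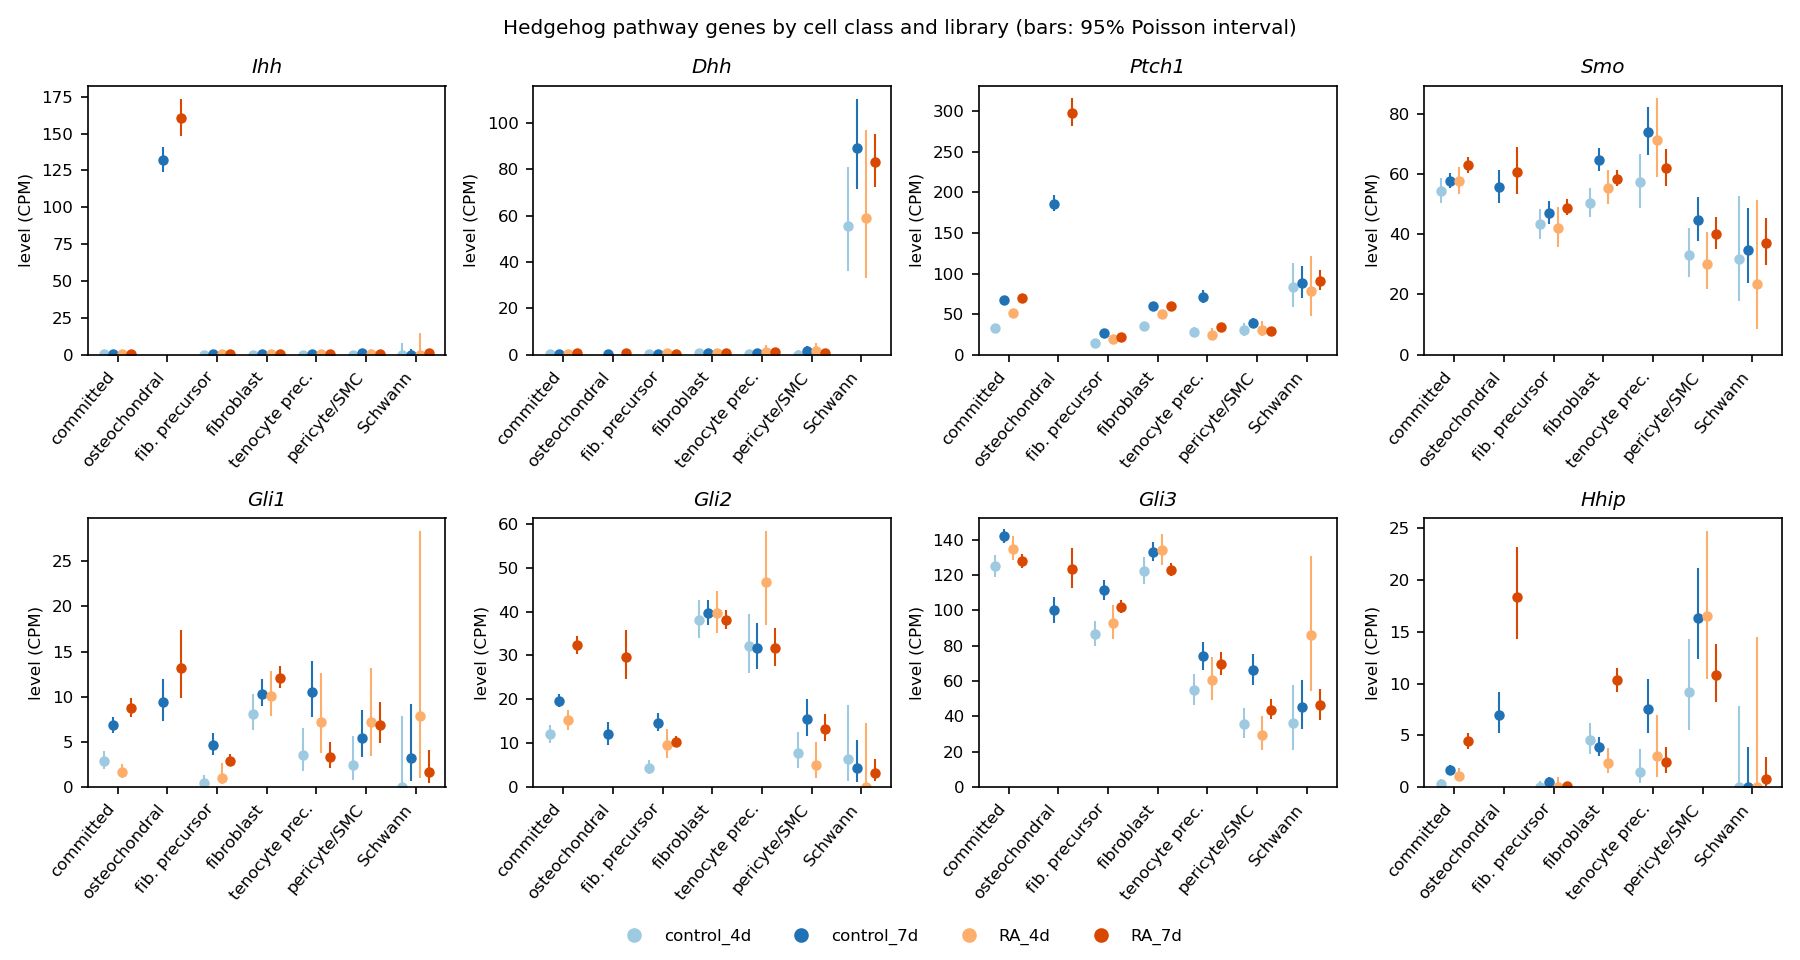
Level (CPM, linear axis from 0) of each of the 8 genes in 7 cell classes, 1 point per library with its 95% Poisson interval, for classes with at least 20 cells in the library. *Ihh* stands above 100 CPM in osteochondral cells and *Dhh* above 50 CPM in Schwann cells, and both lie near 0 in the other classes.

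*Ihh* was held almost entirely by osteochondral cells. Its level in that class was 132 CPM (124 to 141) in control_7d and 160 CPM (148 to 174) in RA_7d, from 964 and 620 UMIs. In the other 6 classes the level over all libraries was 0.214 to 0.554 CPM, and macrophages and monocytes, which are taken here as the measure of free RNA because they are not known to use the gene, had 0.199 CPM. The 6 classes below osteochondral cells overlapped in their ranges over libraries and could not be ordered. Osteochondral cells held 964 of the 1020 *Ihh* UMIs of control_7d, 94.5% (92.9 to 95.8), and 620 of 671 in RA_7d, 92.4% (90.1 to 94.3). At 4 dpf the kept cells held 5 *Ihh* UMIs in control_4d and 8 in RA_4d. Barcodes outside the cell filter, with most of these UMIs in barcodes over the upper limits, held a further 647 *Ihh* UMIs in control_7d and 354 in RA_7d, and 6 and 5 at 4 dpf. An *Ihh* UMI was seen in 245 cells, of which 130 were osteochondral, but of 105 cells with at least 2 UMIs 100 were osteochondral, and so were all 68 cells with at least 5. The share of osteochondral cells with a UMI was 33.7% in control_7d and 33.8% in RA_7d, against 0.517% and 0.383% of macrophages and monocytes, at median depths of 29895 and 29374 UMIs against 10759 and 11408.5. With each cell thinned to 4000 UMIs, the osteochondral shares were 20.2% and 21.1%.

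*Dhh* had its highest level in Schwann cells, while in each library more of its UMIs lay in blood endothelial cells than in Schwann cells. In Schwann cells its level was 55.4 CPM (36.2 to 81.1) in control_4d, 58.8 CPM (32.9 to 97.1) in RA_4d, 89.3 CPM (71.3 to 110) in control_7d and 83.1 CPM (72.2 to 95.2) in RA_7d. The 4 intervals overlapped, and 46.2% to 53.5% of the cells had a UMI. The mesenchymal and mural classes lay at 0.328 to 1.03 CPM, and macrophages and monocytes at 0.0994 CPM with 0.134% of cells. Blood endothelial cells had 19.4 CPM in control_4d, 18.7 in RA_4d, 12.8 in control_7d and 17.3 in RA_7d, and because they were far more numerous (655, 462, 835 and 1111 cells) they held 85.2%, 79.2%, 53.0% and 49.6% of all *Dhh* UMIs. Schwann cells held 7.88%, 6.25%, 26.8% and 35.1% in the same libraries. RA and control Schwann cells did not differ in *Dhh* beyond counting error at 7 dpf, with a ratio of 0.931 (0.720 to 1.21), where 9.2% of genes were higher and 7.88% lower by 1.5-fold, and at 4 dpf *Ptch1*, the single member with enough UMIs, had 0.945 (0.522 to 1.66), where 12.7% were higher and 11.4% lower. Macrophage and monocyte markers summed to 2487 and 2766 CPM in control_4d and control_7d Schwann cells against 23.5 and 301 CPM in RA_4d and RA_7d, and the part of this difference in these levels was not tested.

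**Figure D2:**
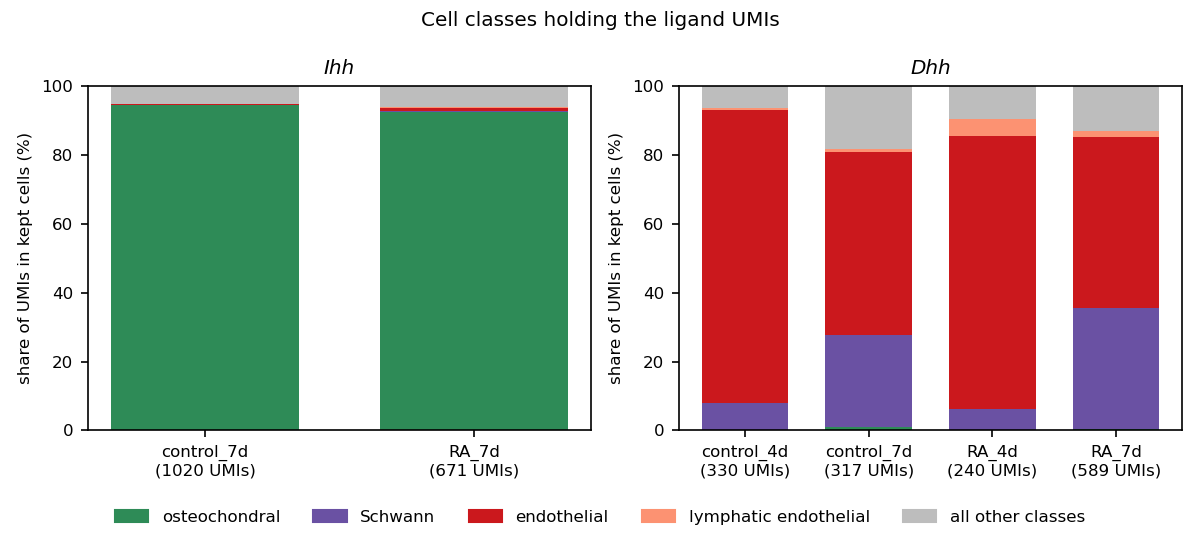
Share (%) of all *Ihh* and *Dhh* UMIs of the kept cells held by each cell class, 1 bar per library, with the number of UMIs under each bar (4 dpf is left out for *Ihh*, which had 5 and 8 UMIs). Osteochondral cells fill over 92% of the *Ihh* bars, and endothelial cells 49.6% to 85.2% of the *Dhh* bars.

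Within Schwann cells *Dhh* was unevenly spread. The 299 cells were split into 3 subsets, again without the Hedgehog genes. A subset of 37 cells with *Drp2*, *Mbp* and *Gjb1* among its leading genes, which are genes of myelinating Schwann cells, had *Dhh* at 283 CPM (227 to 349) and in 75.7% of its cells, although its median depth was only 6626 UMIs. The main subset of 241 cells, with *Scn7a* and the cycling genes *Top2a* and *Pclaf* among its leading genes, had 64.9 CPM (56.6 to 74.1) and 48.5%. *Ptch1* was at 70.8 CPM (44.3 to 107) in the first and 94.7 CPM (84.6 to 106) in the second, and *Gli3* at 3.22 CPM (1 UMI) against 56.0 CPM (48.4 to 64.6). *Gli1* gave 9 UMIs in all Schwann cells and *Gli2* 15. The last 21 cells were led by the macrophage genes *Lyz2* and *Pf4*, held 23.8% called doublets, and had *Dhh* at 53.6 CPM (34.7 to 79.1). They came from the control libraries (6 and 10 cells) and RA_7d (5 cells).

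The receptor *Ptch1* was highest in osteochondral cells. Its level there was 186 CPM (177 to 197) in control_7d and 298 CPM (281 to 316) in RA_7d, and 83.7% and 91.7% of the cells had a UMI. Schwann cells came next, with 83.0, 78.5, 88.2 and 91.1 CPM in control_4d, RA_4d, control_7d and RA_7d, above the range of each remaining class. Committed progenitors (33.1 to 69.5 CPM over the libraries), fibroblasts (35.8 to 60.2) and tenocyte precursors (24.6 to 71.3) overlapped with each other, pericytes and smooth muscle cells had 29.2 to 38.6, and fibroblast precursors were lowest with 14.7 to 26.6. All of these stood above macrophages and monocytes, with 4.61 to 6.54 CPM and 5.03% to 6.21% of cells. Lymphatic endothelial cells, outside the mesenchyme, had 118 CPM (108 to 129) over all libraries and blood endothelial cells 53.4 (51.5 to 55.4).

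*Smo*, the signal transducer, was found in all 7 classes. It lay at 65.7 CPM over all libraries in tenocyte precursors, 59.1 in committed progenitors, 58.9 in fibroblasts and 57.8 in osteochondral cells, whose ranges over libraries overlapped, and at 47.2 in fibroblast precursors, 39.1 in pericytes and smooth muscle cells and 35.0 in Schwann cells. Macrophages and monocytes had 1.71 CPM.

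The GLI transcription factors differed in their distribution. *Gli1* was at 10.9 CPM (10.1 to 11.7) in fibroblasts and 10.6 (8.80 to 12.7) in osteochondral cells, which overlapped, with 6.33 in committed progenitors (1.65 to 8.73 over the libraries), 5.89 in tenocyte precursors (3.30 to 10.5) and 5.78 in pericytes and smooth muscle cells, 2.89 in fibroblast precursors and 2.16 in Schwann cells. These 5 are levels over all libraries, and neighbours in that order overlapped in their ranges over libraries. *Gli2* was at 38.8 CPM (37.3 to 40.3) in fibroblasts, where the 4 libraries lay between 38.2 and 39.8, and at 33.4 in tenocyte precursors. It was at 22.5 in committed progenitors, 17.9 in osteochondral cells, 12.04 in pericytes and smooth muscle cells, 10.6 in fibroblast precursors and 3.6 in Schwann cells, and here too each class overlapped with the next in its range over libraries. *Gli3* was at 134 CPM in committed progenitors, 127 in fibroblasts, 110 in osteochondral cells and 102 in fibroblast precursors, and at 67.4 in tenocyte precursors, 47.3 in Schwann cells and 47.0 in pericytes and smooth muscle cells, where the ranges of neighbours did not overlap only between fibroblast precursors and tenocyte precursors. Macrophages and monocytes had 0.129, 0.129 and 0.776 CPM of the 3 genes.

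*Hhip*, the ligand-binding antagonist, was sparse, with 804 UMIs in 3.18% of the mesenchymal cells. Its level over all libraries was 12.7 CPM (10.8 to 14.8) in pericytes and smooth muscle cells, 10.8 (8.96 to 12.9) in osteochondral cells, 6.90 in fibroblasts, 3.8 in tenocyte precursors and 2.36 in committed progenitors. Fibroblast precursors gave 8 UMIs (0.154 CPM) and Schwann cells 2, and each class overlapped with the next in its range over libraries. At the finer clustering resolution of 1 the mural class parted into 425 cells led by *Myh11* and *Tagln*, genes of smooth muscle, with *Hhip* at 23.9 CPM (20.2 to 28.2), and 408 cells led by *Rgs5* and *Abcc9*, genes of pericytes, with 2.64 CPM (1.57 to 4.18). Fibroblasts parted likewise into 1524 cells led by *Apod* and *Cxcl14* with 9.98 CPM (8.99 to 11.0) and 1064 led by *Myoc* and *Abca8a* with 3.66 CPM (2.87 to 4.59). In macrophages and monocytes *Hhip* gave 3 UMIs, 0.0298 CPM.

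The osteochondral class was divided into 7 subsets, and *Ihh* and *Ptch1* had their highest levels in different ones. *Ihh* was at 443 CPM (415 to 471) in 65 cells led by *Col10a1* and *Matn1*, markers of maturing chondrocytes, with a median of 10 UMIs per cell and a UMI in 60 cells. It was at 635 CPM (569 to 707), from 334 UMIs, in 19 cells led by *Mmp13* and *Spp1*, genes of late hypertrophic cartilage. In 126 cells led by *Ucma* and *Epyc*, genes of less mature cartilage, it was at 23.2 CPM (18.6 to 28.5), in 54 cells led by *Dmp1*, *Ifitm5* and *Bglap*, genes of bone-forming cells, at 51.1 CPM (40.7 to 63.5), and in 71 cells led by *Col8a1* and *Aspn* at 1.54 CPM (3 UMIs in 1 cell). The *Dmp1*-led cells also held the cartilage genes *Col2a1* (16830 CPM, against 12003 in the *Mmp13*-led cells) and *Sox9* (341 against 422 CPM). These markers therefore do not name them as bone-forming cells alone. The *Col10a1*- and *Mmp13*-led subsets gave 962 and 334 of the 1584 *Ihh* UMIs of the class. Nearly all *Ihh* UMIs of the *Dmp1*-led cells came from control_7d.

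*Ptch1* was ordered otherwise, with 452 CPM (420 to 486) in the *Dmp1*-led cells, 274 (251 to 298) in the *Aspn*-led cells, 201 (187 to 216) in the *Ucma*-led cells, 144 (129 to 161) in the *Col10a1*-led cells and 70.4 (49.6 to 97.0) in the *Mmp13*-led cells. None of these intervals overlapped, but the levels sum the libraries. In control_7d alone the *Aspn*-, *Ucma*- and *Col10a1*-led cells lay close together in *Ptch1*, and they parted in RA_7d (values below). *Gli1* was at 23.6 CPM (17.3 to 31.5) in the *Aspn*-led, 15.6 (10.1 to 23.0) in the *Dmp1*-led and 9.78 (6.92 to 13.4) in the *Ucma*-led cells, against 3.22 (1.29 to 6.63) in the *Col10a1*-led cells and 0 UMIs in the *Mmp13*-led cells, whose 19 cells allow up to 7.02 CPM. *Hhip* was at 50.5 CPM (40.1 to 62.8) in the *Dmp1*-led cells, where 16 of 54 cells had a UMI and 1 cell held 27, at 15.4 (10.4 to 22.0) in the *Aspn*-led cells, and at 2.30 and 0.772 in the *Col10a1*- and *Ucma*-led cells. Nearly all *Hhip* UMIs of the *Aspn*-led cells came from RA_7d. *Gli2* was likewise highest in the *Dmp1*-led (48.6 CPM) and *Aspn*-led (31.9 CPM) cells and at 2.30 CPM in the *Col10a1*-led cells, while *Gli3* was at 60.9 to 155 CPM in the 5 subsets. The intervals cover counting only, and since the subsets were made from the same cells these levels are a description. The other 2 subsets, 34 cells led by the macrophage and neutrophil genes *Lyz2* and *S100a8* and 20 led by *Eln* and *Col4a1* with the endothelial gene *Cdh5*, had *Ihh* at 130 and 19.4 CPM and *Ptch1* at 116 and 105 CPM. In the first, 81 of its 106 *Ihh* UMIs were in 1 cell. Divided into 5 subsets instead of 7, a choice added after seeing the data, the *Col10a1*-, *Mmp13*- and *Dmp1*-led cells fell together in the subset with the most *Ihh*, at 320.2 CPM. That subset had *Ptch1* at 250.1 CPM and the highest *Hhip*, at 19.99 CPM. Because these 3 groups are merged there, the order of *Ihh* and its targets among them cannot be read from that division. It rests on the division into 7 alone.

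**Figure D3:**
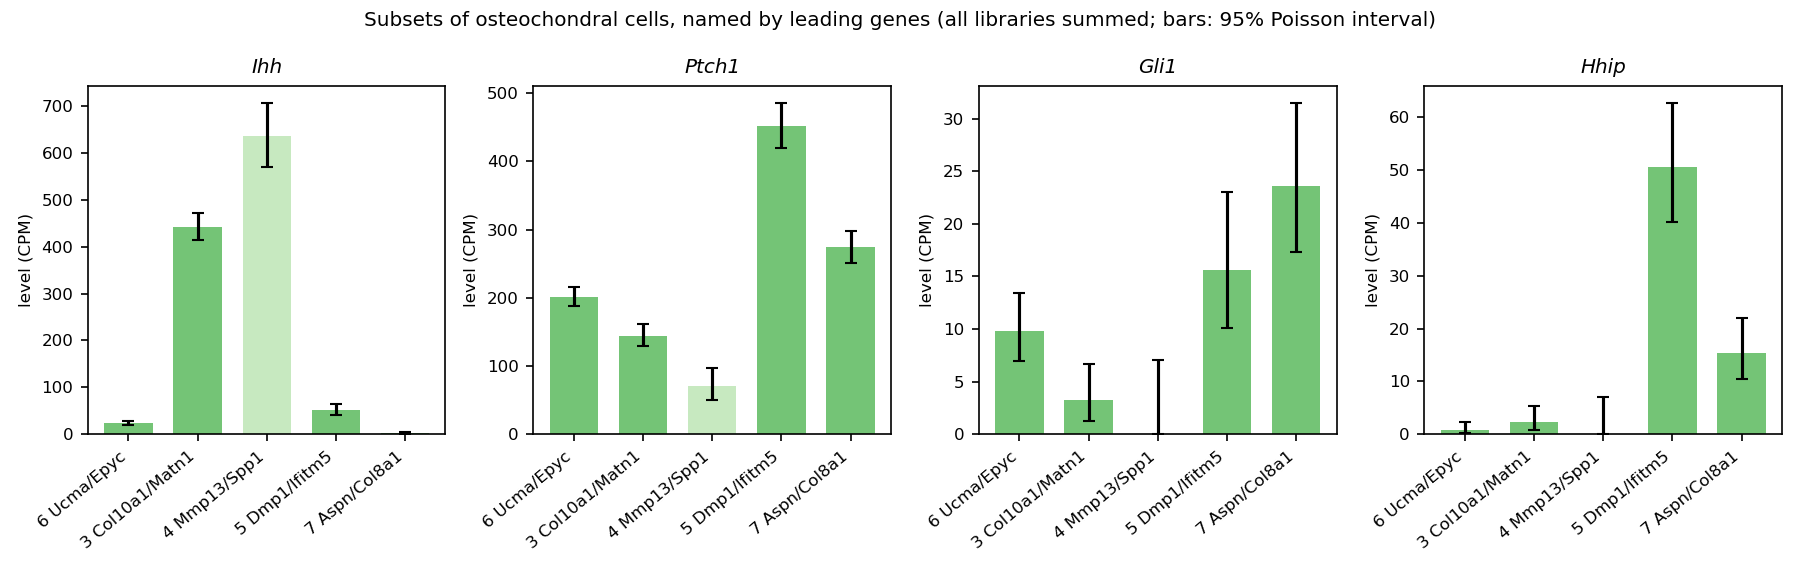
Level (CPM, linear axis from 0) of *Ihh*, *Ptch1*, *Gli1* and *Hhip* in 5 subsets of osteochondral cells, all libraries summed, with the 95% Poisson interval (pale bars: 19 cells). *Ihh* peaks in the *Col10a1*- and *Mmp13*-led subsets, where *Ptch1* and *Gli1* are at their lowest levels of the 5. In control_7d alone *Ptch1* of the *Col10a1*-led subset lay close to that of the *Ucma*- and *Aspn*-led subsets.

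Genes that act beside the ligand were read in the same subsets. *Disp1*, which releases Hedgehog ligands from the cell, was at 69.5 CPM (58.8 to 81.5) in the *Col10a1*-led cells against 13.1 to 34.2 CPM in the other 4. *Scube1*, of the secreted family that carries ligand away, was at 176 CPM (159 to 194) there, 68.7 to 89.4 in the *Ucma*-, *Mmp13*- and *Dmp1*-led cells and 4.11 in the *Aspn*-led cells. *Pth1r* was at 1948 CPM (1890 to 2008) in the *Col10a1*-led cells, with a median of 64 UMIs per cell, 1278 in the *Dmp1*-led and 227 in the *Aspn*-led cells. Its ligand gene *Pthlh* was close to absent from the class (0.959 CPM in control_7d and 1.04 in RA_7d). In fibroblast precursors of the same libraries *Pthlh* was at 30.8 and 29.0 CPM. They were not the only cells with it, since the main Schwann subset of 241 cells held it at 20.6 CPM over all libraries. The co-receptors *Boc* (78.6 CPM) and *Cdon* (38.0 CPM) had their highest subset level in the *Aspn*-led cells, *Cdon* with an interval (29.9 to 47.7) that overlapped that of the *Ucma*-led cells (24.9 to 36.1).

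The comparison of 7 with 4 dpf asks how the pathway moves as the callus turns from inflammation to cartilage. In mesenchymal cells of control mice *Ihh* went from 1 UMI to 990 UMIs (0.0365 to 12.9 CPM), and in RA mice from 4 to 648 (0.179 to 6.76 CPM). The ratios were 354 (63.3 to 13980) and 37.7 (14.7 to 139), and the number of osteochondral cells went from 1 to 252 and from 3 to 133. *Gli1* was higher at 7 dpf under both conditions, 7.52 against 3.83 CPM in control, a ratio of 1.97 (1.59 to 2.44), and 8.37 against 4.12 in RA, 2.03 (1.64 to 2.55). *Ptch1* was higher in control callus, 69.7 against 29.3 CPM, 2.38 (2.21 to 2.56), and less so in RA callus, 61.9 against 45.1, 1.37 (1.28 to 1.47). *Hhip* had 2.47 against 1.49 CPM in control, 1.66 (1.18 to 2.38), and 5.69 against 1.25 in RA, 4.53 (3.10 to 6.89). *Gli2* and *Smo* differed by at most 1.29-fold, and *Gli3* had ratios of 1.14 and 0.927.

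Counted by a change of at least 1.5-fold on the scale of CPM with 1 added, 3 of the 7 members with at least 50 UMIs were higher at 7 dpf in control and none lower, against 6.27% and 4.38% of 15902 genes, and 3 of 8 were higher and none lower in RA, against 5.63% and 4.36% of 16222 genes. With 10 CPM added instead of 1, *Gli1* no longer passed in control (log2 ratio 0.34), nor did *Gli1* (0.38) and *Hhip* (0.48) in RA. The *Gli1* difference was also seen within the committed progenitors, 6.80 against 2.82 CPM in control and 8.73 against 1.65 in RA, where *Gli2* was higher as well, 19.6 against 11.96 and 32.3 against 15.2 CPM. Past 1.5-fold in committed progenitors were *Ptch1* (2.04), *Hhip* (6.66, from 62 and 3 UMIs), *Gli1* (2.41) and *Gli2* (1.64) in control (5.78% of genes higher, 2.31% lower), and *Hhip* (4.21), *Gli1* (5.28) and *Gli2* (2.12) in RA (8.39% higher, 6.18% lower). In fibroblasts *Gli1* was 10.3 against 8.08 and 12.1 against 10.1 CPM, within 1.5-fold. There *Ptch1* passed in control, 59.7 against 35.8 CPM, 1.67 (1.47 to 1.90), with 8.97% of genes higher and 6.35% lower, and *Hhip* in RA, 10.3 against 2.34 CPM, 4.40 (2.67 to 7.79), with 7.13% higher and 3.22% lower. Fibroblast precursors had *Ptch1* at 26.6 against 14.7 CPM, 1.81 (1.45 to 2.28), *Gli1* at 4.63 against 0.432, from 63 and 3 UMIs, and *Gli2* at 14.6 against 4.32, 3.39 (2.30 to 5.16), in control, with 10.3% of genes higher and 5.45% lower, and in RA *Gli1* at 2.92 against 1.03 CPM, from 80 and 4 UMIs, with 9.31% higher and 7.56% lower.

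Outside the summed mesenchyme, tenocyte precursors of control callus had *Ptch1* at 71.3 against 27.5 CPM, 2.59 (2.02 to 3.36), and *Gli1* at 10.5 against 3.58, 2.94 (1.47 to 6.52), with 12.8% of genes higher and 6.36% lower, and none of 4 members passed 1.5-fold in RA, with 9.86% higher and 8.72% lower. In pericytes and smooth muscle cells of control callus *Hhip* had 16.3 against 9.14 CPM, 1.79 (1.05 to 3.18), *Gli2* 15.5 against 7.70, 2.01 (1.13 to 3.76), and *Gli3* 66.1 against 35.6, 1.86 (1.42 to 2.45), with 7.36% of genes higher and 4.12% lower. In RA *Gli2* alone of 5 members passed there, 13.3 against 5.02 CPM from 75 and 7 UMIs, with 10.3% higher and 4.03% lower, and *Hhip* had 10.8 against 16.5 CPM. In Schwann cells *Dhh* was 1.61-fold higher at 7 dpf in control (1.03 to 2.61) and 1.41-fold in RA (0.837 to 2.57), where 10.5% of genes were higher and 6.82% lower by 1.5-fold in control and 19.6% and 10.4% in RA. *Gli3* was lower at 7 dpf in RA Schwann cells, 46.2 against 86.3 CPM, 0.535 (0.337 to 0.887), but the 4 dpf value rests on 22 UMIs of 20 cells, as the *Smo* ratio of 1.57 rests on 6 UMIs there. Median depth of the mesenchymal cells was 32676.5 and 31671 UMIs at 4 dpf and 24620 and 24897 at 7 dpf in control and RA, a difference whose part in these ratios was not tested.

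RA against control at 4 dpf asks whether the arthritic serum moves the pathway at the earlier time. *Ptch1* was at 45.1 CPM (42.4 to 48.0) in RA_4d and 29.3 CPM (27.3 to 31.4) in control_4d mesenchymal cells, a ratio of 1.54 (1.40 to 1.69). It was the single member of 6 tested that passed 1.5-fold, where 3.99% of 14000 genes were higher and 2.82% lower. Committed progenitors had 50.9 against 33.1 CPM, 1.54 (1.35 to 1.75), fibroblasts 49.5 against 35.8, 1.38, and fibroblast precursors 19.6 against 14.7, 1.33 with an interval of 0.977 to 1.81 that held 1, so RA was the higher library in all 3 classes (in committed progenitors 5.45% of genes were higher and 2.66% lower by 1.5-fold), whereas tenocyte precursors had 24.6 against 27.5 CPM. The call was lost under 5 of the 8 other settings tried, where the log2 ratio was 0.48 with the classes weighted equally, 0.39 with the looser cell filter, 0.49 with 10 CPM added, 0.55 with TMM scaling and 0.57 with tenocyte precursors in the sum, in place of 0.61. Erythroid markers (3 genes) summed to 22.6 CPM in RA_4d and 480 CPM in control_4d mesenchymal cells, and neutrophil markers (6 genes) to 188 and 21.7 CPM, with none of these genes at 0, and their part in the *Ptch1* difference was not tested. The targets *Gli1* (4.12 against 3.83 CPM) and *Hhip* (1.25 against 1.49) lay within counting error of each other, as did *Smo*. *Gli2* and *Gli3* were 1.20-fold (1.06 to 1.36) and 1.12-fold (1.06 to 1.18) higher in RA_4d. In fibroblast precursors *Gli2* passed 1.5-fold, 9.52 against 4.32 CPM, 2.21 (1.33 to 3.70) from 37 and 30 UMIs, where 8.09% of genes were higher and 7.47% lower. None of the members tested passed in tenocyte precursors (4 members, 12.5% of genes higher and 6.37% lower) or in pericytes and smooth muscle cells (3 members, 5.58% and 5.41%).

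RA against control at 7 dpf gave ratios that differed between ligand and antagonist. In mesenchymal cells *Ihh* was at 6.76 CPM in RA_7d and 12.9 in control_7d, 0.525 (0.474 to 0.580), and *Hhip* at 5.69 against 2.47 CPM, 2.30 (1.95 to 2.73). These were the 2 of 8 members past 1.5-fold, where 4.68% of 17184 genes were higher and 5.0% lower, and neither passed with 10 CPM added (log2 ratios of −0.45 and 0.33). *Ptch1* had a ratio of 0.888 (0.856 to 0.922), *Smo* 1.00 (0.961 to 1.04), *Gli1* 1.11 (0.998 to 1.24), *Gli2* 1.22 (1.15 to 1.29) and *Gli3* 0.910 (0.886 to 0.935). The *Ptch1* direction was not that of each class. RA_7d was its highest library within committed progenitors (69.5 CPM), fibroblasts (60.2) and osteochondral cells (298), and control_7d within fibroblast precursors (26.6). In osteochondral cells RA_7d stood well above control_7d (186 CPM), whereas in committed progenitors and fibroblasts it lay close to control_7d. With the classes weighted equally the *Ptch1* log2 ratio was 0.10. Osteochondral cells were 8.30% (7.34 to 9.34) of the mesenchymal cells in control_7d and 3.50% (2.94 to 4.14) in RA_7d. The part of this difference in the *Ihh* ratio was not tested. Within osteochondral cells *Ihh* was not lower in RA_7d, at 160 against 132 CPM, 1.22 (1.10 to 1.35). Weighting the classes equally turned the log2 ratio from −0.84 to 0.0151. The other mesenchymal classes held *Ihh* below the 1 CPM that is added, so their log2 ratios are small by construction. The equally weighted value therefore cannot show what part the class shares had. The number of cells in a library depends on what was scraped and freed by digestion, and the shares do not count cells in a callus.

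*Hhip* was higher in RA_7d in 3 mesenchymal classes, with 10.3 against 3.82 CPM in fibroblasts, 2.70 (2.08 to 3.54), 4.40 against 1.66 in committed progenitors, 2.65 (1.95 to 3.63), and 18.4 against 6.99 in osteochondral cells, 2.63 (1.81 to 3.85). These UMIs were concentrated in few cells. In fibroblasts 79 of 1506 cells (5.25%, 4.17 to 6.50) had a UMI in RA_7d and 34 of 869 (3.91%, 2.72 to 5.42) in control_7d, shares whose intervals overlapped, while cells with a UMI held 4.15 UMIs on average, up to 30 in 1 cell, against 2.09, up to 5. In committed progenitors the shares were 4.32% (3.22 to 5.65) and 2.44% (1.70 to 3.39). At 4 dpf the fibroblast levels lay the other way, 2.34 CPM in RA_4d against 4.52 in control_4d, 0.519 (0.270 to 0.953), from 16 and 38 UMIs, where 3.65% of genes were higher and 3.88% lower by 1.5-fold. The shares of genes higher and lower by 1.5-fold at 7 dpf were 4.56% and 3.16% in fibroblasts, 5.22% and 3.98% in committed progenitors and 5.41% and 5.28% in osteochondral cells. In committed progenitors *Gli2* was past 1.5-fold as well, 32.3 against 19.6 CPM, 1.65 (1.5 to 1.81), whereas in fibroblasts it had a ratio of 0.961 (0.876 to 1.05). None of 5 members tested passed 1.5-fold in fibroblast precursors (5.57% of genes higher, 8.58% lower) and none of 6 in pericytes and smooth muscle cells (5.25% and 3.47%), where *Gli3* had 43.8 against 66.1 CPM, 0.663 (0.552 to 0.796), and *Hhip* 10.8 against 16.3 CPM, 0.661 (0.453 to 0.965).

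**Figure D4:**
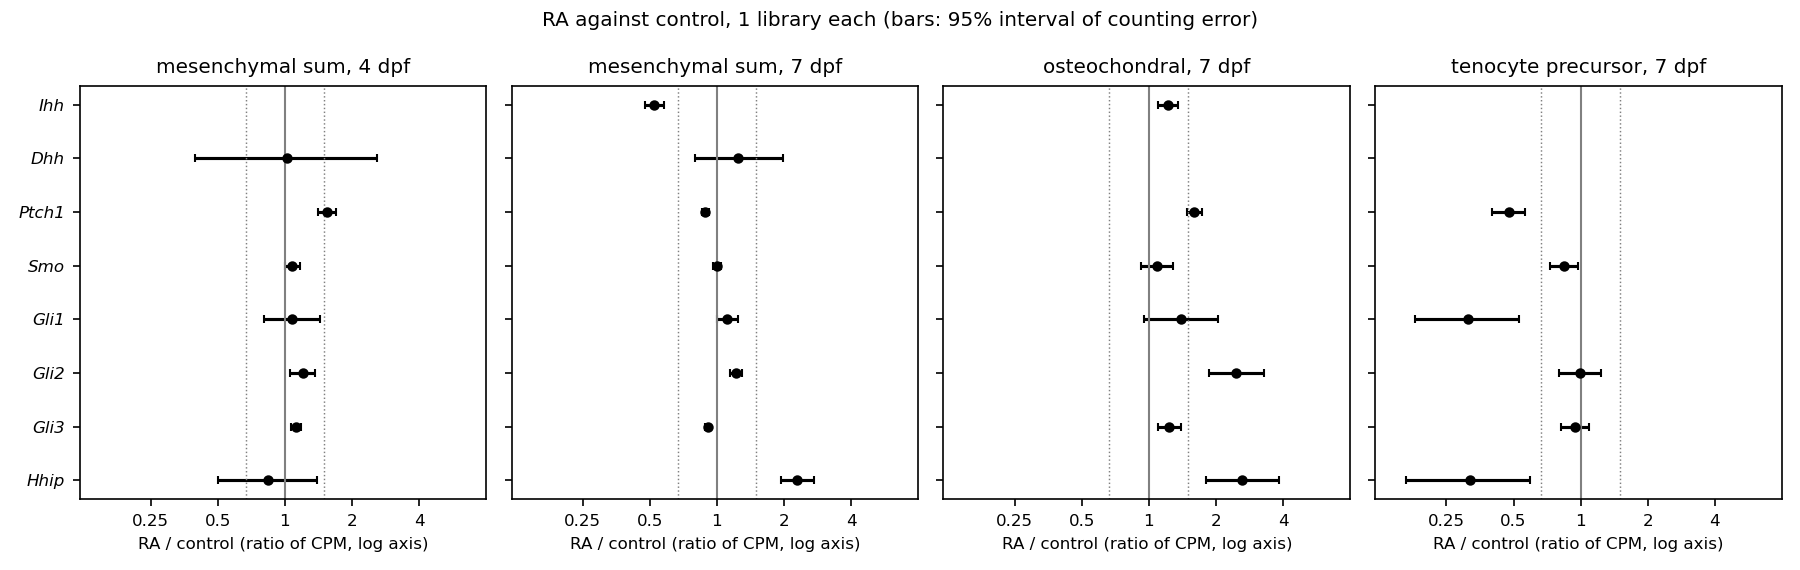
Ratio of RA to control CPM (log axis) of each gene in summed mesenchymal cells at 4 and 7 dpf and in osteochondral cells and tenocyte precursors at 7 dpf, with the 95% counting interval, from 1 library per condition, for genes with at least 5 UMIs in both libraries (dotted lines: 1.5-fold). *Ptch1* lies at 1.60 in osteochondral cells and at 0.476 in tenocyte precursors.

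Osteochondral cells of RA_7d carried more *Ptch1* per UMI than those of control_7d, 298 against 186 CPM, 1.60 (1.48 to 1.73), and more *Gli2*, 29.8 against 12.1 CPM, 2.47 (1.85 to 3.30). With *Hhip*, 3 of the 7 members tested were higher by 1.5-fold and none lower, and all 7 had a positive log2 ratio with a median of 0.44, where 5.41% of 10380 genes were higher, 5.28% lower and the median of all genes was 0.01. *Gli1* was at 13.2 (9.83 to 17.4) against 9.45 CPM (7.35 to 11.96), which overlapped. The difference was not the same in all subsets. The share of all genes past 1.5-fold was not counted within subsets, so the subset ratios stand without that background. In the *Aspn*-led cells *Ptch1* was at 488 CPM in RA_7d (28 cells) against 155 in control_7d (40 cells), 3.14 (2.61 to 3.79), with medians of 9 and 2.5 UMIs per cell, and *Gli2* at 60.7 against 16.2 CPM, 3.73 (2.11 to 6.87). In these cells *Gli1* was at 35.8 against 18.0 CPM, 1.99 (1.07 to 3.75), and *Hhip* gave 29 UMIs in 6 of the RA_7d cells and 1 UMI in control_7d, where the ratio of 44.3 has an interval of 7.35 to 1809. *Gli3* had the other direction there, 135 against 173 CPM, 0.780 (0.605 to 1.00).

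In the *Ucma*-led cells *Ptch1* was at 267 against 164 CPM, 1.63 (1.41 to 1.88), and *Gli2* at 18.5 against 4.43, 4.18 (2.00 to 9.38), whereas *Gli1* was alike, 9.98 against 9.67 CPM (ratio 0.494 to 2.08). In the *Col10a1*-led cells, which held most *Ihh*, *Ptch1* was at 139 against 148 CPM, 0.939 (0.735 to 1.19), and *Ihh* at 428 against 450 CPM, 0.949 (0.828 to 1.09). The *Dmp1*- and *Mmp13*-led subsets had under 20 cells in a library and are given as counts, with 273 *Ptch1* UMIs in 17 RA_7d cells against 452 in 37 control_7d cells, 39 *Hhip* UMIs against 42, and 1 *Ihh* UMI against 81, and with 238 *Ihh* UMIs in 10 *Mmp13*-led cells of RA_7d against 96 in 9 of control_7d. The parts that the subsets made up of the class overlapped in their intervals, except for the *Lyz2*-led cells. The *Aspn*-led cells were 21.1% (14.5 to 29.0) in RA_7d and 15.9% (11.6 to 21.0) in control_7d, and the *Ucma*-led 36.8% (28.7 to 45.6) and 30.6% (24.9 to 36.6). The *Lyz2*-led cells were 3.01% (0.825 to 7.52) in RA_7d, 4 of 133, and 11.5% (7.84 to 16.1) in control_7d, 29 of 252, and erythroid and neutrophil markers summed to 1316 and 212 CPM in control_7d osteochondral cells against 330 and 6.73 in RA_7d. Without both mixed subsets, a choice added after seeing the data, *Ptch1* was at 309.5 against 197 CPM.

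**Figure D5:**
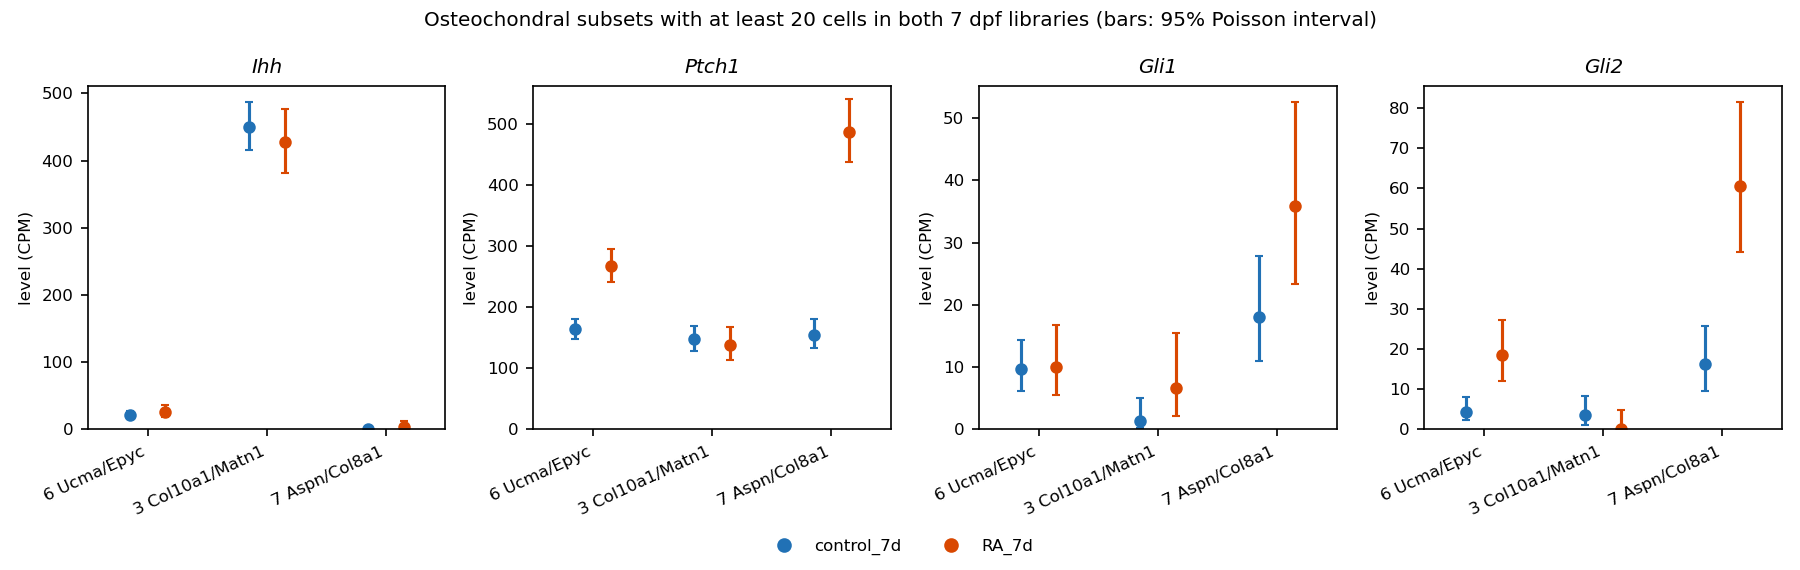
Level (CPM, linear axis from 0) of *Ihh*, *Ptch1*, *Gli1* and *Gli2* in control_7d and RA_7d for the 3 osteochondral subsets with at least 20 cells in both libraries, with the 95% Poisson interval. *Ptch1* is 488 against 155 CPM in the *Aspn*-led subset and 139 against 148 CPM in the *Col10a1*-led subset.

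Tenocyte precursors had the opposite direction at 7 dpf. *Ptch1* was at 33.9 CPM (29.6 to 38.6) in RA_7d and 71.3 (63.9 to 79.4) in control_7d, 0.476 (0.400 to 0.565), *Gli1* at 3.30 against 10.5, 0.314 (0.181 to 0.529), and *Hhip* at 2.40 against 7.52, 0.319 (0.165 to 0.592), where 3.68% of 10741 genes were lower by 1.5-fold and 5.44% higher. The share of cells with a *Ptch1* UMI was 38.2% (32.9 to 43.7) against 52.9% (45.9 to 59.8). At 4 dpf both libraries were near the RA_7d level, with 27.5 CPM in control_4d and 24.6 in RA_4d, so control_7d was the library that stood apart. *Gli2* (0.996) and *Gli3* (0.942) had ratios whose intervals held 1. With classes from resolution 1 the *Ptch1* ratio was 0.460 (0.399 to 0.530) and with the looser cell filter 0.432 (0.342 to 0.543), but with clusters made without integration it was 0.768 (0.557 to 1.07), from 215 and 73 cells, and *Gli1* was 1.25 (0.380 to 5.34). *Hhip* turned direction, with 3.86 against 2.54 CPM under the looser filter, 1.52 (0.658 to 3.72), and 4.31 CPM against no UMI without integration, so the lower values rest on which cells are given the name.

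The other 43 genes of a Hedgehog list were counted beside the members. Of these, 39 had at least 50 UMIs in the mesenchymal sums at 7 dpf, where 2 were higher and 3 lower in RA by 1.5-fold (4.68% and 5.0% of all genes) and 21 of 39 had a positive log2 ratio (median 0.03, against −0.04 over all genes). The 2 were co-receptors that help ligand bind, *Cdon*, 85.6 against 47.1 CPM, 1.82 (1.75 to 1.89), and *Gas1*, 388 against 250 CPM, 1.55 (1.53 to 1.58). The 3 were *Scube1*, 0.594 (0.524 to 0.673), *Scube3*, 0.253 (0.182 to 0.346), and *Pth1r*, 61.9 against 126 CPM, 0.490 (0.474 to 0.506). *Scube1* and *Pth1r* were at their highest level in osteochondral cells. There *Scube1* was at 96.0 CPM in RA_7d against 69.6 in control_7d and *Pth1r* at 893 against 927, both within 1.5-fold. *Scube3* was lower there too, 2.85 against 15.5 CPM, 0.184 (0.0893 to 0.342). *Cdon* was the higher in RA_7d in committed progenitors (67.9 against 31.1 CPM), fibroblasts (106 against 82.0) and fibroblast precursors (91.9 against 55.5). None of the 19 regulators of GLI processing and of SMO passed 1.5-fold in the mesenchymal sums at 4 or 7 dpf. In osteochondral cells 1 of them, *Sufu*, a negative regulator of GLI proteins, was at 48.1 against 24.8 CPM, 1.94 (1.57 to 2.40). There 5.41% of all genes were higher and 5.28% lower by 1.5-fold, and the other regulators in this class are not reported here.

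At 4 dpf, of 36 list genes none was higher and 2 were lower in RA (3.99% and 2.82% of all genes), *Pthlh*, 5.33 against 14.7 CPM, 0.362 (0.293 to 0.445), and *Scube1*, 18 against 61 UMIs. *Pthlh* then went to 20.4 CPM in RA_7d, 3.83 times (3.18 to 4.65) its 4 dpf level. From 4 to 7 dpf *Pth1r* was 3.86-fold higher in control and 1.58-fold in RA, *Scube1* 3.49-fold and 5.72-fold, and the cell cycle gene *Ccnd1* lower in both, 0.627 and 0.545. *Cdon* was lower at 7 dpf in control, 0.641 (0.607 to 0.677), and higher in RA, 1.59 (1.49 to 1.69). *Gas1* was lower in control, 0.561, as was *Mycn*, 0.301, and *Scube2* and *Scube3* were higher there, 1.91 and 10.0. In all, 4 of 39 list genes were higher and 4 lower in control (6.27% and 4.38% of all genes) and 5 and 1 in RA (5.63% and 4.36%). *Shh*, the ligand of other tissues, gave 6 UMIs in control_7d Schwann cells and at most 1 in any other class of either 7 dpf library described.

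Genes whose level ran most like that of each member were taken by Pearson's r of log2(CPM + 1) over the 58 sums of a cell class and library with at least 20 cells, among 16856 genes. The sums share libraries and cell types, so these are descriptions. Closest to *Ihh* were *Clec3a* (0.98), *Gm45397* (0.96), *Pcp4* (0.94), *Lbhd2* (0.94) and *Slc13a5* (0.93), and to *Dhh* *Sh3tc2* (0.90), *Itgb4* (0.89), *Egfl8* (0.89), *Shroom2* (0.85) and *Dok4* (0.85). Closest to *Ptch1* were *Myo6* (0.86), *Fancc* (0.85), *Mid2*, *Fgfr2* and *Sec63*. Of these *Fancc* lies downstream of *Ptch1* on the same strand, with its start 11.05 kb from the 3′ end of *Ptch1*. The first for *Gli1*, *Gli2*, *Gli3* and *Hhip* were *Il17d* (0.82), *Plekhh2* (0.94), *Gpx8* (0.95) and *Gm9922* (0.83). Among the members themselves r was highest between *Smo* and *Gli3* (0.86), *Gli2* and *Gli3* (0.84) and *Smo* and *Gli2* (0.83), and lowest between *Dhh* and *Hhip* (−0.19).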

How the data were processed

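The authors deposited, for each library, a matrix of raw UMI counts per gene and barcode made with Cell Ranger 7.0.1 (submitters' processing notes) from 3′ droplet libraries aligned to mm10. Such counts see the 3′ end of a transcript and cannot tell isoforms apart. Barcodes with 4000 to 50000 UMIs, 2000 to 7000 features and at most 8% mitochondrial UMIs were kept, as in the study's methods. In Seurat 5.3.0 (R 4.3.3), 2000 variable genes, without the 51 Hedgehog list genes, were integrated by canonical correlation analysis and clustered on 15 principal components. Clusters were named from marker lists. Cells called doublets by Scrublet (592, 2.32%) were kept and removed as an alternative. Osteochondral and Schwann cells were clustered again. Counts were summed per class and library and given as CPM. A gene was compared if the pair of libraries held 50 or more of its UMIs, and a difference was counted from 1.5-fold on the scale of CPM with 1 added. Intervals were computed in SciPy 1.17.1, and the scripts were tested on simulated data.

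Members and lists were chosen with earlier results of these data known. The text names the members, list genes past the fold or of the roles described, class markers and the 5 most alike genes. Genes leading clusters and subsets were named after their values were seen. Alternatives were the scaling, pseudocount, filters, weighting, resolution, integration, thinning and the class names. Some genes that these rules name are not reported here.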

Additional observations from a re-analysis of the deposited data

Results flagged for a closer look

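No difference given here was tested, since each group was 1 library. In mesenchymal cells the ratio of RA to control lay on opposite sides of 1 at the 2 times for *Ptch1*, 1.54 at 4 dpf and 0.888 at 7 dpf, and for *Gli3*, 1.12 and 0.910. Within committed progenitors and fibroblasts, however, RA_7d was the highest library for *Ptch1*, though it lay close to control_7d there. Equal weighting of the classes gave *Ptch1* a log2 ratio of 0.10 at 7 dpf. At 7 dpf the ratio of each of 6 members also lay on opposite sides of 1 in different cell classes, with intervals that left out 1. *Ptch1* had 0.476 in tenocyte precursors and 1.60 in osteochondral cells, *Smo* 0.839 in tenocyte precursors and 1.09 in committed progenitors, and *Gli1* 0.314 and 1.28 in the same classes. *Gli2* had 0.704 in fibroblast precursors and 2.47 in osteochondral cells, *Gli3* 0.663 in pericytes and smooth muscle cells and 1.24 in osteochondral cells, and *Hhip* 0.319 in tenocyte precursors and 2.70 in fibroblasts. The classes with the lowest and the highest ratio were taken for each gene, so these pairs were chosen by their values. The tenocyte precursor ratios depend on the cells given that name. Without integration *Ptch1* had 0.768 and *Gli1* 1.25 there, and *Hhip* was at 4.31 CPM in RA_7d against no UMI in control_7d. With the looser cell filter *Hhip* had 1.52 with an interval that held 1, while *Ptch1* had 0.432 and *Gli1* 0.275. At resolution 1 *Ptch1* had 0.460, *Gli1* 0.337 and *Hhip* 0.288.

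Barcodes outside the cell filter held *Ihh* at 7 dpf and *Gli3* at 4 dpf at levels above those of the kept cells. *Ihh* was at 18.3 CPM in those of control_7d, against 7.20 in the kept cells, and at 13.8 against 4.29 CPM in RA_7d. Of 647 *Ihh* UMIs left out of control_7d, 622 were in barcodes over 50000 UMIs or 7000 features. *Gli3* was at 100.1 against 36.1 CPM in control_4d and at 88.7 against 39.99 CPM in RA_4d, and 60.4% and 55.4% of its UMIs in these libraries were in barcodes left out. In control_4d *Smo* was higher there too, at 38.9 against 19.6 CPM, with 52.3% of its UMIs left out. So were *Ptch1*, at 34.6 against 21.4 CPM, *Gli1*, at 2.31 against 1.47, and *Hhip*, at 1.104 against 0.655. *Dhh* lay lower there than in the kept cells, at 1.41 against 3.04 CPM in control_4d and 1.497 against 2.88 in RA_4d. In RA_7d *Dhh* was also lower, at 2.84 against 3.76 CPM, as was *Hhip*, at 2.84 against 4.06. *Gli1* was at 4.63 against 5.77 and *Gli2* at 17.9 against 20.6 CPM in that library. Whether these barcodes are large cells or several cells in 1 droplet was not tested.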

How the results depend on the processing

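Values are log2 ratios in mesenchymal cells unless named otherwise, and the cause of a move was not tested. With a pseudocount of 10 CPM, which by its construction shrinks low genes, *Ihh* had −0.45 and *Hhip* 0.33 for RA to control at 7 dpf. For 7 to 4 dpf in control, *Ihh* had 1.19, *Ptch1* 1.02, *Gli1* 0.34 and *Hhip* 0.12, and in RA *Ihh* had 0.72, *Gli1* 0.38 and *Hhip* 0.48. The genes past 1.5-fold were then 116 higher and 138 lower at 4 dpf (558 and 395 with 1 CPM), 324 and 262 at 7 dpf (804 and 859), 304 and 290 for 7 to 4 dpf in control (997 and 697) and 324 and 197 in RA (913 and 708).

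With classes weighted equally, *Ptch1* had 0.48 and *Gli2* 0.45 at 4 dpf. At 7 dpf *Ihh* had 0.0151 and *Ptch1* 0.10, each a change of sign, *Gli3* −0.0219 and *Hhip* 0.78. The *Ihh* value rests mostly on classes with less than 1 CPM of the gene, whose log2 ratios are small by construction. With the looser cell filter *Ptch1* had 0.39 and *Gli3* 0.0295 at 4 dpf, and *Ihh* −0.69, *Ptch1* −0.12 and *Hhip* 0.72 at 7 dpf. *Hhip* had 0.75 without integration and 0.78 with tenocyte precursors in the sum. The ratios of 7 to 4 dpf were not recomputed with the looser filter. Barcodes left out held 47.1% of *Ptch1* UMIs in control_4d and 21.1% in control_7d, and 43.6% and 15.7% in RA_4d and RA_7d. TMM scaling shifted the 4 comparisons by −0.06, 0.06, −0.09 and 0.02, and gave *Ptch1* −0.11, *Smo* 0.0586 and *Gli3* −0.0758 for RA to control at 7 dpf and *Ihh* 3.66, *Ptch1* 1.13, *Smo* 0.0935 and *Gli3* 0.0978 for 7 to 4 dpf in control. In osteochondral cells *Ihh* was at 104 CPM in control_7d and 116 in RA_7d with classes at resolution 1, and at 113 and 141 without integration, where *Ptch1* was at 345 in RA_7d. *Ptch1* was at 197 CPM in control_7d without the subsets led by *Lyz2* and *Eln*. With the looser filter a cluster of 4404 cells led by *Ibsp* and *Col2a1* had *Ihh* at 17.3 CPM. It is far larger than the osteochondral class, so its levels cannot be set beside those of that class. Removing doublets moved none of the 44 values of this kind recomputed. Thinning, which by its construction lowers the share of cells with a UMI, moved 176 of 208 such shares.

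No paired analysis was possible because each condition and time is 1 library. For the same reason no library was left out, and differences between mice, digestion or library preparation cannot be told apart from those between conditions. Depth limits *Hhip*, *Gli1* and the subsets under 20 cells.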
